A study of Mus musculus with 8 samples.

Results

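The 44 genes described here encode the machinery of the synaptic vesicle cycle: 8 vesicle proteins, 6 parts of the SNARE fusion machinery, 10 active zone and priming proteins, 3 proteins of SNARE disassembly, 12 endocytosis proteins and 5 subunits of the proton pump. They were taken by gene name from the 39429 probes of the array, on which each of the 44 had at least 1 probe and together they had 79. Of these, 38 probes of 30 genes could be tested, out of 18399 probes of 14996 genes tested in all.

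RNA was measured from the striatum of 4 adult male mice genotyped as Brd2+/- and of 4 wildtype males, on 4 Agilent arrays that each held 2 mice of 1 genotype. The heterozygotes carry a gene trap in 1 copy of Brd2, which encodes a BET bromodomain protein that reads acetylated histones. All mice were C57Bl/6j after a 7th generation of backcrossing and came from matings between heterozygotes. The trap is present in the whole animal and the tissue was bulk striatum, so that fewer cells of a type and less RNA per cell cannot be told apart. In each genotype, replicates 1 and 2 shared an array and replicates 3 and 4 shared the other. Replicates 1 and 3 carried the dye Cy3 and replicates 2 and 4 carried Cy5.

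A nerve terminal loads transmitter into vesicles with the help of a proton pump, docks and primes them at the active zone, and fuses them with the membrane through the SNARE proteins when calcium enters. NSF and its SNAP adaptors then take the SNARE complex apart, and clathrin, its adaptor AP2, dynamin and their helpers retrieve the membrane. In the striatum these terminals belong to local projection neurons and interneurons and to axons from cortex, thalamus and midbrain, whose transcripts lie mostly in their cell bodies elsewhere.

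The tissue label reads prefrontal cortex striatum, the protocol gives striatum, and the free description gives the left atrium of the heart. Striatal projection neurons were represented by 11 marker genes, each detected in all 8 samples. Of 8 atrial markers, 1 (Myl4) was detected in all 8 samples, and Myl7 and Actc1 in none. Nppa and Tnnt2 were each detected in 3 heterozygous and 4 wildtype mice. Myh6, Sln and Tnni3 were detected in at most 2 mice of either genotype. Detected here means well above background by the scanner software. Between 41.6% (heterozygous replicate 3) and 63.1% (heterozygous replicate 2) of probes stood well above background, and no spot was saturated. Across probes, which are not independent, the log2 intensity correlated at 0.986 to 0.989 between mice of 1 array and at 0.925 to 0.959 between mice of different arrays. Brd2 itself read 11.82, 11.68, 11.77 and 11.72 log2 units in the samples labelled heterozygous, against 11.05, 10.76, 12.01 and 12.02 in wildtype, with its brighter probe. That difference of 0.29 (SE 0.35, limma adjusted p = 0.932) and the 0.88 (SE 0.28, adjusted p = 0.502) of its dimmer probe (0.61 to 1.11 over the alternatives) do not check the genotypes, since the place of the probes against the trap is not given.

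Several results depend on what a probe reads, so the probes behind them are shown here, 5′ to 3′, with coordinates of the deposited files on mm9. Clta, Atp6v1e1 and Stx1a are the members described in full below. Their probes lie at chr4:44045557-44045616 (plus strand), chr6:120745623-120745682 (minus) and chr5:135526477-135526536 (plus).

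Clta: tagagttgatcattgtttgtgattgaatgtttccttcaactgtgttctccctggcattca
Atp6v1e1: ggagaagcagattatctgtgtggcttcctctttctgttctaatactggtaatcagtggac
Stx1a: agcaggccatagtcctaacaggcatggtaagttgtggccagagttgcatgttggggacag

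Ap2m1 has a pair of probes that overlap by 27 bases, given in capitals, at chr16:20543921-20543980 and chr16:20543954-20544013 on the plus strand. They are shown because they differed in direction.

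Ap2m1 first probe: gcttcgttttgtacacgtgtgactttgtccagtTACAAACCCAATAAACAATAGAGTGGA
Ap2m1 second probe: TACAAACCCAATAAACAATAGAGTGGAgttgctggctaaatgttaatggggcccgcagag

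Cplx2 has 5 probes, and 4 of them consist of A and G alone. The unique probe (chr13:54485200-54485259) and the repeat probe that stands for the gene in the fit (chr13:108816800-108816859) are shown, both on the plus strand, with the longest run of A and G in capitals.

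Cplx2 unique probe: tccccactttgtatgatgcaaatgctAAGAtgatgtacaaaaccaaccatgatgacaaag
Cplx2 repeat probe: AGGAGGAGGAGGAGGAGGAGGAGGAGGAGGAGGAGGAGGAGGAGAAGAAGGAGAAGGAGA

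No vesicle cycle gene passed the test across the array. The lowest limma adjusted p was 0.498 among the members and 0.435 among all 18399 probes, of which 0 passed at 0.05 (0% of probes and of genes) and 1468 (7.98%) had an unadjusted p under 0.05. Each gene was read by its brightest tested probe. Of the 30 genes, 15 read higher and 15 lower in heterozygous striatum (50% higher, beside 47.2% of all genes higher and 52.8% lower), with a median log2 difference of 0.02 beside −0.03 over all genes tested. An unadjusted p under 0.05 was found for 2 members, Clta and Atp6v1e1, both higher (6.67% of the 30, beside 8.05% of all genes, 3.77% higher and 4.28% lower). The heterozygous and wildtype values did not overlap for these and for Stx1a, which was lower. These 3 of 30 (10%) stand beside 16.9% of all genes, 7.72% higher and 9.2% lower. With only 2 and 3 members past these thresholds, the shares did not set the group apart.

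Of the 44 genes, 14 could not be read because the scanner software marked spots of their probes as outliers. They are Syn1, Syp, Sv2a, Sv2b, Vamp2, Rab3a, Rab3b, Rab3c, Unc13c, Napa, Amph, Ap2b1, Bin1 and Atp6v0c. The share of probes with such a spot was 46.5% of the 71 member probes bright enough to keep, against 17.4% of all 22288. It was 0.598% among probes with a mean below 8 log2 units and 55.2% between 12 and 14, and many members are abundant in neurons. With these spots kept, all 44 genes could be read among 17382. Then 24 read higher and 20 lower (54.5% higher, beside 48.9% of all genes higher and 51.1% lower), with a median difference of 0.04 beside −0.01 over all genes, and 0 genes passed after adjustment (0% of all genes). For 14 of the 30 genes this also meant another probe, since a brighter one with flagged spots then read the gene. With the 30 genes held to their former probes and the other 14 added, the median over all 44 was −0.02. Only Clta and Atp6v1e1 then had an unadjusted p under 0.05. With the brightest probes, an unadjusted p under 0.05 was found for 4 members (9.09%, beside 8.95% of all genes, 4.56% higher and 4.39% lower), which were Clta, Cltb, Ap2m1 and Atp6v1e1, all higher. The groups did not overlap for 8 members (18.2%, beside 18.3% of all genes, 9.13% higher and 9.16% lower), 6 of them higher and 2 lower.

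**Figure D1:**
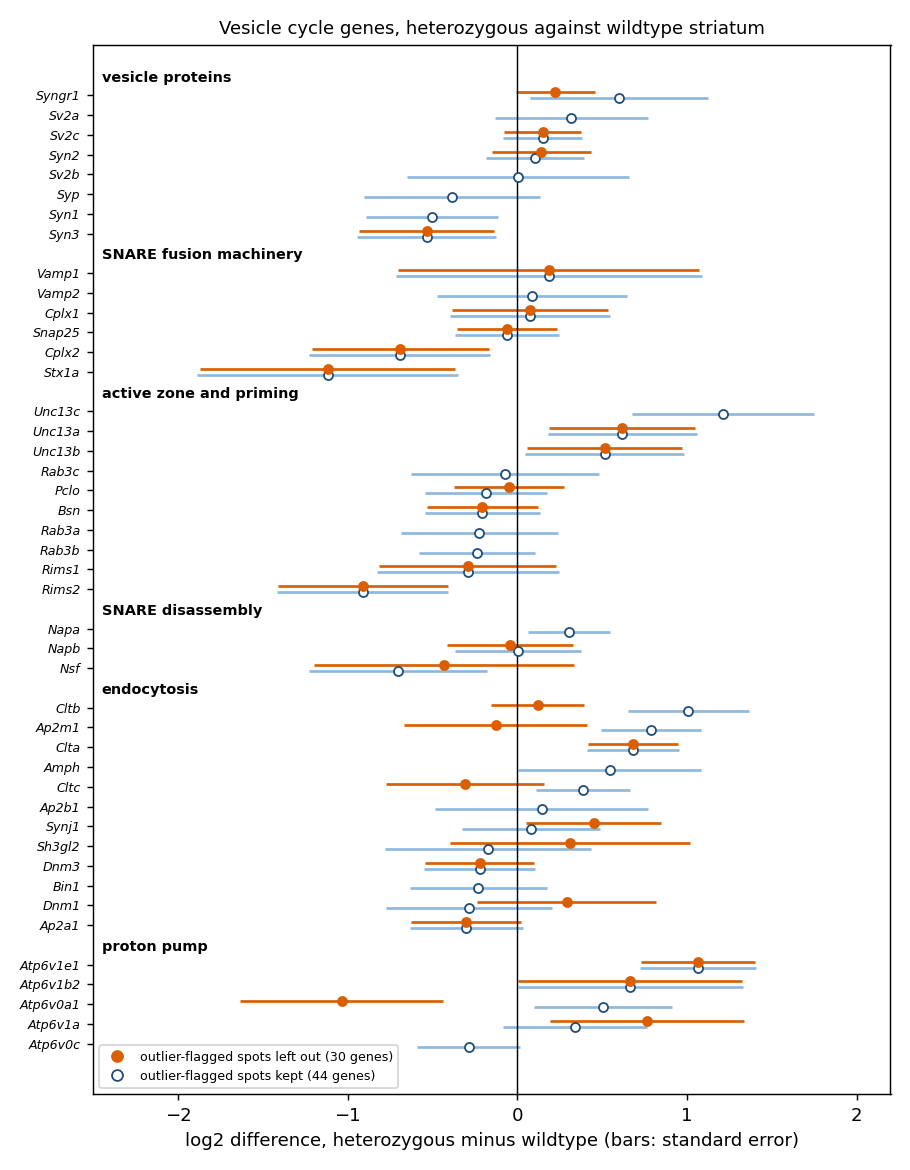
Log2 difference, heterozygous minus wildtype, for each vesicle cycle gene by step, with its standard error as the bar, with outlier-flagged spots left out (filled, 30 genes) and kept (open, 44 genes). Points lie on both sides of 0 in most steps, and a gene such as Ap2m1 or Atp6v0a1 changes side where a different probe reads it.

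The vesicle proteins gave 4 readable genes, 3 higher and 1 lower, with a median difference of 0.15. Syn3, a synapsin that tethers vesicles, read 8.13, 8.84, 8.66 and 8.84 log2 units in heterozygous mice, against 9.51, 9.46, 8.59 and 9.06 in wildtype mice, a difference of −0.53 (SE 0.40, 95% interval −1.44 to 0.37). The groups overlapped through wildtype replicate 3. Syngr1, a synaptogyrin of the vesicle membrane, differed by 0.23 (SE 0.23), Sv2c, the SV2 form prominent in the basal ganglia, by 0.15 (SE 0.23) and Syn2 by 0.14 (SE 0.29). With flagged spots kept, all 8 could be read, 5 higher and 3 lower. Syn1, the synapsin that links vesicles to actin, then read 13.30, 13.01, 12.89 and 13.12 in heterozygous mice, against 14.01, 13.51, 13.35 and 13.46 in wildtype mice. The groups did not overlap, and the difference was −0.50 (SE 0.39, limma adjusted p = 0.798), with both spots of the second wildtype array flagged. Syp, synaptophysin, differed by −0.38 (SE 0.52), Sv2a by 0.32 (SE 0.45) and Sv2b by 0.01 (SE 0.66). These values turned on the flagged pair of spots in each gene. Fitted without that pair, the differences were 0.05 (SE 0.62) for Syp, −0.24 (SE 0.46) for Sv2a, −0.86 (SE 0.69) for Sv2b and −0.68 (SE 0.48) for Syn1.

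Among the SNARE fusion genes, 5 were readable, 2 higher and 3 lower, with a median of −0.06. Stx1a encodes syntaxin-1A, a plasma membrane SNARE. It read 9.92, 10.37, 10.02 and 10.02 log2 units in heterozygous mice, against 12.45, 11.16, 10.60 and 10.59 in wildtype mice. The groups did not overlap, but wildtype replicate 1 lay far above the other wildtype mice. The difference was −1.12 (SE 0.75, 95% interval −2.82 to 0.58, limma adjusted p = 0.795). A two-sided exact permutation over samples gave p = 0.0286, the smallest that 4 against 4 can give, and over whole arrays p = 0.333, the smallest that 2 against 2 can give. The difference was −0.51 with wildtype replicates 1 and 2 left out and −1.72 with wildtype replicates 3 and 4 left out. With the scanner's own processed signals it was −0.85. The groups then overlapped, since heterozygous replicate 2 lay above wildtype replicates 3 and 4.

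Wildtype replicate 1 was also the highest sample for 6 of 9 markers of cortical excitatory neurons. Cux2 and Rorb were highest in wildtype replicate 4 and Nrgn in heterozygous replicate 2. Slc17a7, the vesicular glutamate transporter of cortical neurons, read 8.90, 7.57, 8.61 and 9.77 log2 units in heterozygous mice, against 12.39, 10.31, 8.75 and 10.09 in wildtype mice. Tbr1, a transcription factor of cortical projection neurons, read 9.69, 8.37, 9.10 and 8.67 in heterozygous mice, against 12.37, 8.91, 9.42 and 9.43 in wildtype mice. The summed level of all 9 cortical markers, 6 of them well above background in all 8 samples, was 14.51 to 15.58 in heterozygous and 14.59 to 15.72 in wildtype mice, a sum in which Nrgn is the brightest marker. None of the 9 was at background in every sample. The part of cortical RNA in the Stx1a difference was not tested.

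The other SNARE genes did not separate the genotypes. Snap25, the SNARE that contributes a pair of helices, read 15.76, 15.85, 15.75 and 15.88 in heterozygous mice, against 16.02, 15.65, 15.87 and 15.95 in wildtype mice, a difference of −0.06 with a 95% interval of −0.73 to 0.61. The groups overlapped. Vamp2, the main vesicle SNARE of forebrain terminals, was readable only with flagged spots kept and differed by 0.09 (SE 0.56), against −0.84 (SE 0.49) when fitted without its 2 flagged wildtype spots. Its values were 13.18, 13.44, 14.13 and 14.36 in heterozygous mice, against 14.70, 14.53, 12.69 and 12.85 in wildtype mice. The wildtype arrays lay on either side of all heterozygous values, and the low pair was the flagged one.

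Vamp1, a vesicle SNARE of fast-firing neurons, and Cplx1, a complexin that clamps and promotes fusion, varied more between replicates than between genotypes. Vamp1 read 11.61, 11.35, 13.04 and 13.74 in heterozygous mice, against 11.42, 11.40, 12.46 and 13.72 in wildtype mice. Cplx1 read 13.90, 13.71, 14.39 and 14.88 in heterozygous mice, against 13.84, 13.71, 14.30 and 14.72 in wildtype mice. The genotype differences were 0.19 (SE 0.89) and 0.08 (SE 0.46). For both genes replicate 4, on Cy5, was higher than replicate 3 of the same array. In both genotypes replicates 3 and 4 were higher than replicates 1 and 2 for both genes. Of 6 thalamic markers, Prkcd, Slc17a6 and Lef1 were likewise higher in both replicates 3 and 4 than in both replicates 1 and 2 of each genotype, while Calb2, Rora and Tcf7l2 did not keep this order. Prkcd, an abundant thalamic kinase, read 8.86, 9.05, 12.17 and 14.35 in heterozygous mice, against 9.16, 10.51, 12.18 and 14.20 in wildtype mice. Slc17a6, the glutamate transporter of thalamic neurons, read 7.09, 6.82, 9.50 and 11.46 in heterozygous mice, against 8.46, 8.10, 10.21 and 12.52 in wildtype mice. The summed level of the 6 thalamic markers, 5 of them well above background in all samples, ranged from 11.17 to 14.74 in heterozygous and from 11.39 to 14.93 in wildtype mice. Pvalb, the parvalbumin of fast-firing interneurons and of some thalamic neurons, ranged from 11.53 to 14.81 in heterozygous and from 10.81 to 14.81 in wildtype mice, with replicates 3 and 4 the higher in both. What part these cells have in the Vamp1 and Cplx1 levels was not tested.

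**Figure D2:**
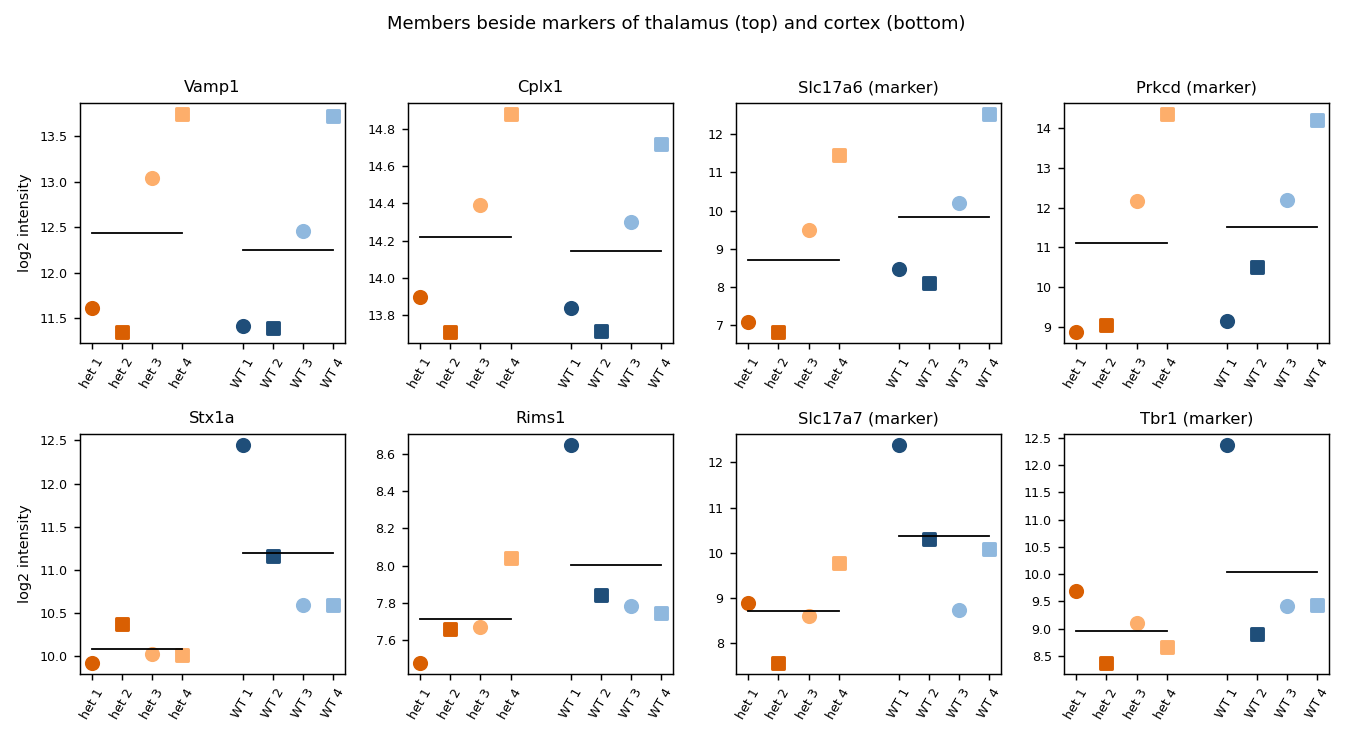
Log2 intensity in each mouse of Vamp1 and Cplx1 beside the thalamic markers Slc17a6 and Prkcd (top) and of Stx1a and Rims1 beside the cortical markers Slc17a7 and Tbr1 (bottom). Heterozygous mice are orange and wildtype mice blue, dark for the array of replicates 1 and 2 and light for that of replicates 3 and 4, circles are Cy3, squares are Cy5 and lines are group means. Vamp1 and Cplx1 are higher in replicates 3 and 4 of both genotypes, and Stx1a and Tbr1 are highest in wildtype replicate 1.

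Cplx2, the complexin most common in forebrain neurons, was read by the repeat probe shown above. The deposited coordinates place this probe far from the unique probe on the same chromosome, so what it measures is uncertain. Another repeat probe is placed at chr5:112438094-112438174, while the others lie near the unique probe. The repeat probe shown above gave 14.23, 14.31, 14.49 and 13.85 in heterozygous mice, against 14.58, 13.86, 15.65 and 15.55 in wildtype mice, a difference of −0.69 (SE 0.52). The groups overlapped through wildtype replicate 2. The other 3 repeat probes of the gene differed by −0.52, −1.13 and −0.87. The array held 13 further tested probes of A and G alone that do not belong to a member, and 12 of these were lower, with a median of −0.83 and 5 at an unadjusted p under 0.05. The unique probe had 3 flagged heterozygous spots. With them kept, it read 14.94, 15.27, 15.89 and 15.998 in heterozygous mice, against 16.44, 16.39, 16.40 and 15.63 in wildtype mice, a difference of −0.69 (SE 0.53).

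The active zone and priming genes gave 6 readable genes, 2 higher and 4 lower, with a median of −0.13. Unc13a encodes Munc13-1, the main priming factor, and was described in full because its probes differed in sign. The brighter probe read 8.24, 9.08, 8.77 and 8.93 log2 units in heterozygous mice, against 8.36, 8.62, 7.79 and 7.77 in wildtype mice, a difference of 0.62 (SE 0.43, limma adjusted p = 0.802). The dimmer probe read 7.19, 7.38, 7.93 and 7.79 in heterozygous mice, against 7.88, 7.49, 7.65 and 7.81 in wildtype mice, a difference of −0.14 (SE 0.35). Both sets of groups overlapped. Unc13b, a related priming factor, differed by 0.52 (SE 0.46). Unc13c, Munc13-3, was readable only with flagged spots kept, with 1 flagged spot in wildtype replicate 2. It read 11.18, 11.27, 11.86 and 11.69 in heterozygous mice, against 9.52, 10.06, 11.05 and 10.52 in wildtype mice. All 4 heterozygous values lay above all 4 wildtype values, and the difference was 1.21 (SE 0.54, limma adjusted p = 0.567).

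The scaffolds of the active zone differed less or followed a single array. Rims2, a RIM protein that holds calcium channels near vesicles, read 9.66, 9.86, 7.73 and 7.98 in heterozygous mice, against 9.74, 10.01, 9.41 and 9.72 in wildtype mice. Only the second heterozygous array was low. The difference of −0.91 (SE 0.50) became 0.04 without that array. Rims1 differed by −0.29 (SE 0.52), with wildtype replicate 1 at 8.65 and the other wildtype mice at 7.75 to 7.84. Bsn, bassoon, differed by −0.21 (SE 0.33) and Pclo, piccolo, by −0.05 (SE 0.32). The GTPases Rab3a, Rab3b and Rab3c, which sit on vesicles and bind RIM, were readable only with flagged spots kept and differed by −0.22, −0.24 and −0.07. Fitted without the flagged spots, they differed by 0.36 (SE 0.40), −0.16 (SE 0.37) and 0.18 (SE 0.62), so that Rab3a and Rab3c turned sign. Another pair of Rab3c probes share 54 of their 60 bases, so they are not separate readings. They differed by −0.08 and −0.89 with flagged spots kept, and by −1.07 (SE 0.44) and −0.99 (SE 0.66) without them. For the first of these, that left only wildtype replicates 3 and 4, at 13.66 and 13.98. Its flagged wildtype replicates 1 and 2 read 12.06 and 11.65.

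SNARE disassembly gave 2 readable genes, both lower. Nsf, the ATPase that separates spent SNARE complexes, read 8.21, 7.85, 8.73 and 7.65 in heterozygous mice, against 7.31, 7.19, 9.87 and 9.80 in wildtype mice. The wildtype arrays lay further apart than the genotypes, whose difference was −0.43 (SE 0.77). Napb, beta-SNAP, differed by −0.04 (SE 0.37). With flagged spots kept, the brighter Nsf probe differed by −0.70 (SE 0.52), and Napa, alpha-SNAP, by 0.31 (SE 0.24). Fitted without its 3 flagged spots, the brighter Nsf probe differed by −1.31 (SE 0.55). That fit left heterozygous replicates 3 and 4 of 1 array alone.

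Endocytosis gave 9 readable genes, 5 higher and 4 lower, with a median of 0.12. Clta encodes clathrin light chain A, a part of the coat. It read 14.14, 13.95, 14.33 and 14.32 log2 units in heterozygous mice, against 13.39, 13.12, 13.84 and 13.65 in wildtype mice. All 4 heterozygous values lay above all 4 wildtype values, and no spot was flagged. The difference was 0.68 (SE 0.27, 95% interval 0.08 to 1.29, limma adjusted p = 0.578), with an exact permutation p of 0.0286 over samples and 0.333 over arrays. As for Stx1a, both permutation values follow from the lack of overlap alone. The difference was 0.36 with the scanner's own processed signals and 0.31 after local trends across each array were taken out. A second Clta probe, with wildtype replicates 1 and 2 flagged, differed by 0.14 (SE 0.26), and by 0.34 (SE 0.30) without those spots.

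The other coat genes were read differently by their different probes. Cltb, clathrin light chain B, differed by 0.12 (SE 0.27) with its tested probe. Its brighter probe, with 3 flagged spots, read 10.89, 11.18, 11.39 and 11.60 in heterozygous mice, against 10.72, 10.72, 9.61 and 9.96 in wildtype mice. These groups did not overlap and differed by 1.01 (SE 0.36, limma adjusted p = 0.452), against 1.44 (SE 0.35, limma adjusted p = 0.362) when fitted without the flagged spots. The flagged spots were those of wildtype replicates 1 and 2 and heterozygous replicate 3. Wildtype was thus left with the lower array, that of replicates 3 and 4, alone. Cltc, the heavy chain, differed by −0.31 (SE 0.46) with its tested probe and by 0.39 (SE 0.28) with its brighter one, which had 2 flagged wildtype spots and gave 0.25 (SE 0.31) without them. The first Ap2m1 probe shown above, for the cargo-binding subunit of AP2, read 14.25, 14.51, 14.33 and 14.61 in heterozygous mice, against 13.98, 13.96, 13.21 and 13.41 in wildtype mice. All 4 of its wildtype spots were flagged, and the difference was 0.79 (SE 0.29, limma adjusted p = 0.477). The second, overlapping probe read 11.91, 11.77, 12.18 and 12.31 in heterozygous mice, against 12.44, 12.24, 12.46 and 12.48 in wildtype mice, a difference of −0.36 (SE 0.28), with heterozygous replicates 1 and 2 flagged, and −0.16 (SE 0.34) without them. Another Ap2m1 probe, with no flagged spot, differed by −0.13 (SE 0.54). Over the 20 members with several probes bright enough to keep, 8 had probes of opposite sign, and 7 had probes at least 1.5-fold apart.

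**Figure D3:**
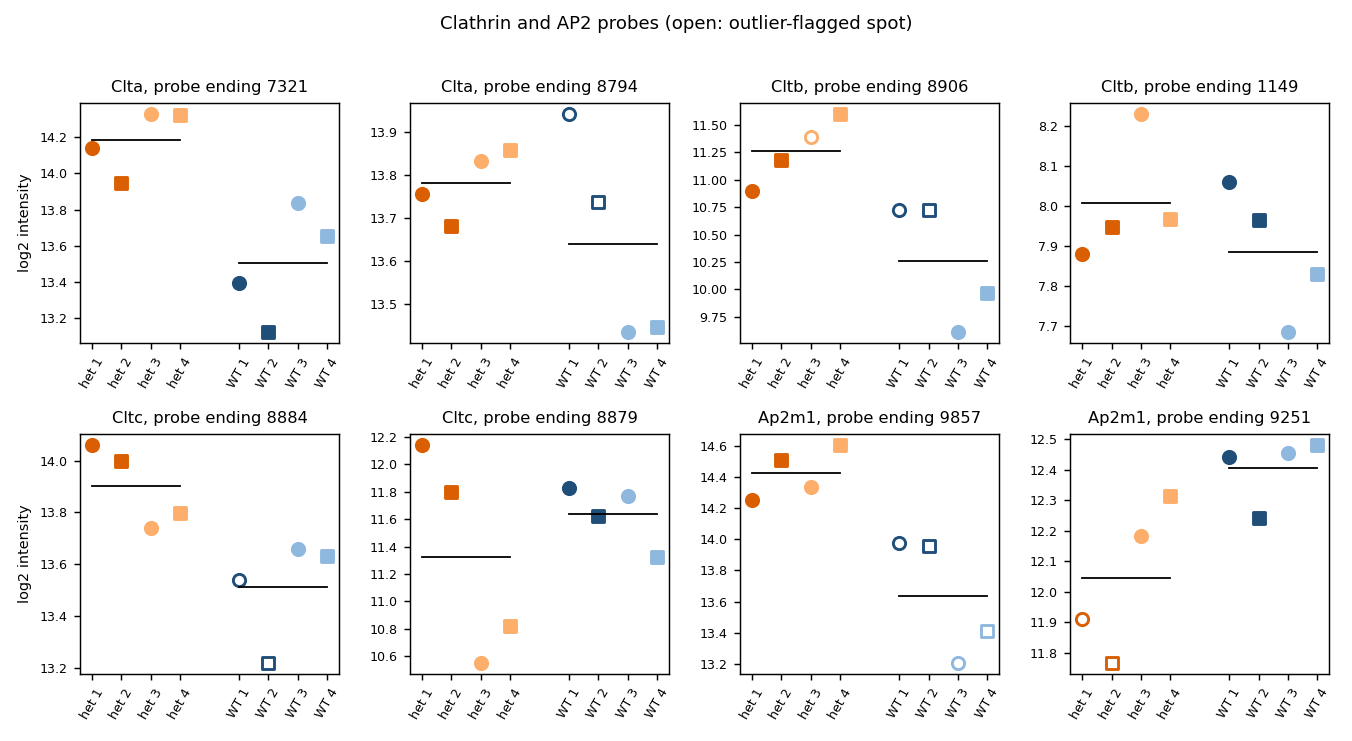
Log2 intensity in each mouse for 8 probes of Clta, Cltb, Cltc and Ap2m1, with colours and symbols for genotype, array and dye (heterozygous orange, wildtype blue) and open symbols for outlier-flagged spots. In each pair the first panel shows non-overlapping genotypes and the second shows overlapping ones.

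The remaining endocytosis genes had overlapping groups. Synj1, synaptojanin, which strips the coat, differed by 0.45 (SE 0.40), and Sh3gl2, endophilin A1, by 0.31 (SE 0.71). Brighter probes, with their flagged spots kept, differed by 0.08 (SE 0.41) for Synj1 and by −0.17 (SE 0.61) for Sh3gl2. Without its flagged spot, the brighter Sh3gl2 probe differed by 0.10 (SE 0.33). Dnm1, the neuronal dynamin that cuts the vesicle neck, differed by 0.29 (SE 0.53) with its tested probe and by −0.28 (SE 0.49) with a brighter probe that had 2 flagged spots. Dnm3 differed by −0.22 (SE 0.32) and Ap2a1, a large AP2 subunit, by −0.30 (SE 0.32). With flagged spots kept, Amph, amphiphysin, differed by 0.55 (SE 0.54) and, without its 2 flagged spots, by 0.85 (SE 0.28). With all spots kept, Ap2b1 differed by 0.14 (SE 0.63) and Bin1, which shapes membrane, by −0.23 (SE 0.40).

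The proton pump gave 4 readable subunits, 3 higher and 1 lower, with a median of 0.72. Atp6v1e1 encodes subunit E1 of the catalytic V1 domain. It read 13.89, 14.03, 13.72 and 13.85 log2 units in heterozygous mice, against 13.32, 13.20, 12.21 and 12.51 in wildtype mice. All 4 heterozygous values lay above all 4 wildtype values, and the wildtype arrays differed by 0.90 between themselves. The difference was 1.06 (SE 0.34, 95% interval 0.31 to 1.82, limma adjusted p = 0.498), with an exact permutation p of 0.0286 over samples and 0.333 over arrays. Both permutation values again follow from the lack of overlap alone. With the scanner's own processed signals the difference was 0.09, where the wildtype arrays lay on either side of the heterozygous ones. It was 0.61 with wildtype replicates 3 and 4 left out and 1.51 with wildtype replicates 1 and 2 left out.

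The array of wildtype replicates 3 and 4 was low for further pump subunits. Atp6v1b2, the brain form of subunit B, read 10.63, 10.83, 11.16 and 11.59 in heterozygous mice, against 11.62, 11.65, 9.10 and 9.18 in wildtype mice. Its difference of 0.67 (SE 0.66) became −0.58 when that array was left out. Atp6v1a, the ATP-splitting subunit A, read 11.50, 11.20, 11.66 and 11.68 in heterozygous mice, against 12.04, 11.33, 9.85 and 9.76 in wildtype mice. Its difference of 0.76 (SE 0.57) became −0.17 without that array. A brighter Atp6v1a probe with 4 flagged spots differed by 0.34 (SE 0.42). Atp6v0a1, the membrane subunit a1, differed by −1.03 (SE 0.60) with a dim probe and by 0.50 (SE 0.41) with a brighter one that had 2 flagged wildtype spots. Atp6v0c, the proteolipid of the rotor, differed by −0.29 (SE 0.30) with flagged spots kept. Fitted without the flagged spots, Atp6v0c differed by 0.09 (SE 0.40) and the brighter Atp6v1a probe by −0.04 (SE 0.56). The brighter Atp6v0a1 probe then differed by 1.13 (SE 0.32, limma adjusted p = 0.402). That fit left wildtype replicates 3 and 4 of the low array alone, at 13.38 and 13.39. The flagged wildtype replicates 1 and 2 read 14.82 and 14.46.

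**Figure D4:**
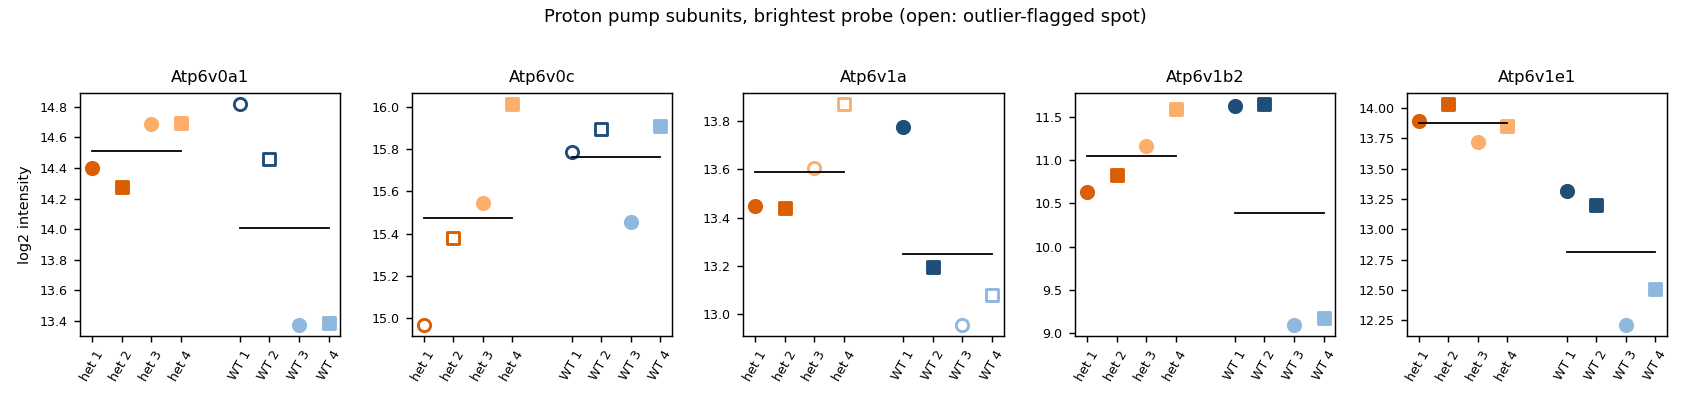
Log2 intensity in each mouse of 5 proton pump subunits, each with its brightest probe, with heterozygous mice orange, wildtype mice blue, lighter colours for the arrays of replicates 3 and 4 and open symbols for outlier-flagged spots. Wildtype replicates 3 and 4 are the lowest pair for Atp6v0a1, Atp6v1a, Atp6v1b2 and Atp6v1e1.

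This array also held the lowest pair of values for 13 of the 44 members with flagged spots kept (29.5%), beside 17.8% of all genes. These were the 4 pump subunits named above, Amph, Ap2m1, Cltb, Sv2a, Sv2b, Syn2, Syngr1, Unc13a and Vamp2. In 26 of the 30 members tested, the gap between the arrays of 1 genotype exceeded the genotype difference (86.7%, beside 77.6% of all genes). The median gap was 0.27 between heterozygous arrays and 0.66 between wildtype arrays, and the median size of the genotype difference was 0.30. Over all genes the median gap was 0.32 between heterozygous and 0.35 between wildtype arrays. With flagged spots kept, the gap exceeded the difference in 32 of the 44 members (72.7%, beside 76.8% of all genes), so the order of the shares turned.

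**Figure D5:**
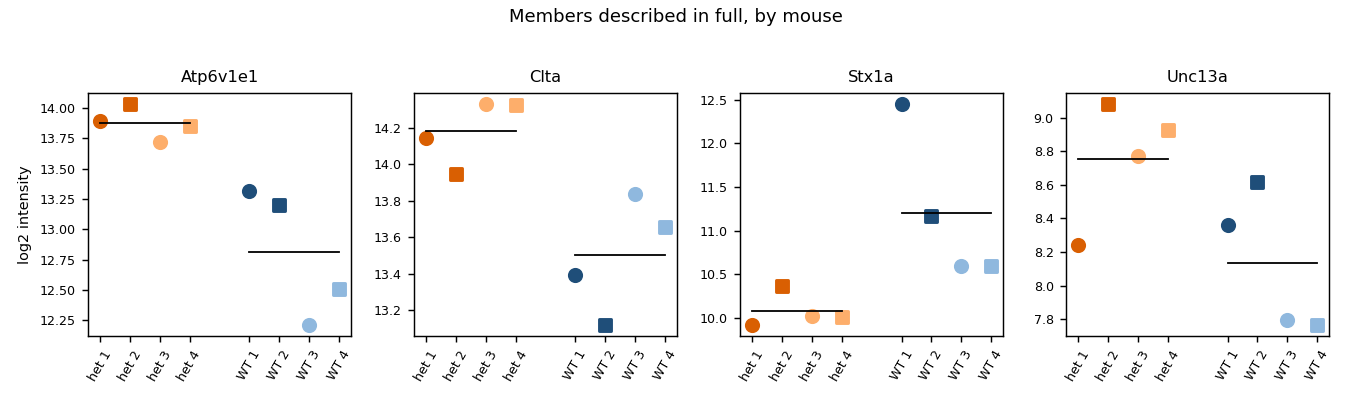
Log2 intensity in each mouse of Atp6v1e1, Clta, Stx1a and Unc13a (brighter probe), with heterozygous mice orange, wildtype mice blue, dark for the array of replicates 1 and 2 and light for that of replicates 3 and 4, and lines at the group means. The groups do not overlap for Atp6v1e1, Clta and Stx1a, and they overlap for Unc13a.

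Some summed levels of marker sets also did not overlap between the genotypes, while those of the other sets overlapped. The summed level of the 7 oligodendrocyte markers, all well above background in every sample, was 17.03 to 17.56 log2 units in heterozygous mice, against 16.33 to 16.71 in wildtype mice. That of the 5 vessel markers was 12.78 to 13.51 in heterozygous mice, against 13.89 to 15.42 in wildtype mice. That of the 8 atrial markers, 1 of them detected in all 8 samples, was 10.16 to 10.61 in heterozygous mice, against 10.64 to 12.23 in wildtype mice. Lack of overlap was also found for Clta and Atp6v1e1, and for 16.9% of all genes tested, of which 0 passed after adjustment. The part of other cells in the Clta and Atp6v1e1 differences was not tested.

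Of 70 further genes of the same pathway, 56 were tested, 27 higher and 29 lower (beside 47.2% of all genes higher and 52.8% lower). The median was −0.01, beside −0.03 over all genes, and 0 passed after adjustment. An unadjusted p under 0.05 was found for 4 of the 56, 2 higher and 2 lower. This stands beside 8.05% of all genes, 3.77% higher and 4.28% lower. Of these 4, 3 are described here. Syngr2, a synaptogyrin found mainly outside neurons, read 11.42, 11.31, 11.44 and 11.42 in heterozygous mice, against 10.67, 10.65, 10.21 and 10.49 in wildtype mice, a difference of 0.89 (SE 0.27). Ppfia2, liprin-alpha-2 of the active zone, differed by 1.36 (SE 0.54). It read 10.74, 10.84, 8.80 and 9.18 in heterozygous mice, against 8.90, 9.07, 7.86 and 8.28 in wildtype mice. Its groups overlapped, and replicates 1 and 2 were the higher in each genotype. Erc1, an active zone scaffold protein, differed by −0.66 (SE 0.22). Its values were 7.35, 7.21, 7.42 and 7.40 in heterozygous mice, against 7.93, 7.95, 8.10 and 8.03 in wildtype mice. The limma adjusted p of these 3 genes lay between 0.488 and 0.585.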

How the data were processed

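Per the file headers, Agilent Feature Extraction 11.0.1.1 gave the mean spot intensity and the median local background of both channels. Deposited processed intensity values served as an alternative. The authors' deposited value table, another alternative, is a linear ratio of each spot's background-subtracted signal to the median of its column. The labels do not state this: 100% of its values equalled that ratio, computed from the scanner values, within a relative tolerance of 1e-04, and each column's median is 1. The log2 scale was applied here to the deposited intensities.

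Each mouse's own channel was used, with normexp (offset 50), loess within arrays and Aquantile between arrays in limma 3.58.1 (R 4.3.3). Control spots and outlier-flagged spots were left out, and repeated spots were averaged by probe. A probe was tested if none of its 8 values was missing and at least 4 were called well above background. Each gene was read by its tested probe with the highest mean. Genotypes were compared with limma (lmFit, eBayes), with dye as a covariate and array as a random block (duplicateCorrelation, 0.810), and Benjamini-Hochberg adjustment over all probes at 0.05. The scripts were tested on simulated data. Genotype varies only between arrays, so the p-values of the fit, which counts both mice of an array, may be too small.

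Names came from the files, with 27234 of 39429 probes also matched by accession to a RefSeq table of GRCm38.p6. Coordinates are on mm9, per the file headers, and exon or UTR annotation of that build was not used here. Members and gene lists were chosen with earlier results of these data known. Members were described in full where the reading probe had an unadjusted p under 0.05, where the groups did not overlap and differed by at least 0.58 (1.5-fold), or where tested probes differed in sign by at least 0.58. Up to 4 further pathway genes per direction with an unadjusted p under 0.05 were named, and 1 such gene is not reported here. Alternatives covered background, normalization, values, filters, dye, blocks, spatial trend, flagged spots and each array or replicate left out.

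Same-numbered replicates of the genotypes had deviations from the group means that correlated at r = 0.039, 0.255, 0.164 and 0.125, and at −0.043, 0.182, 0.079 and 0.055 with the dye effect removed. Not every pair exceeded 0.1, so the numbers were not taken as pairs. The samples are separate mice per the labels, and the number of arrays limits the precision.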

Additional observations from a re-analysis of the deposited data

Results flagged for a closer look

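Of 60 groups of 4 mice checked for the 30 readable members, 3 held a mouse far from the other 3 of its group. Chance flags about 1 in 20 groups. Napb read 11.89 log2 units in wildtype replicate 2, below the 12.54 to 12.62 of the other wildtype mice. Unc13b read 7.822 in the same mouse, below 8.779 to 8.907. Rims1 read 8.648 in wildtype replicate 1, above 7.747 to 7.841, and this mouse was also the highest for Stx1a and for 6 of 9 cortical markers.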

How the results depend on the processing

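The count of 0 probes called held under most of 32 alternatives. It was 1 with the authors' value table, 529 with no array block, between 0 and 1 when leaving out single replicates, 22 with the array of wildtype replicates 1 and 2 left out, 14 with that of wildtype replicates 3 and 4 left out and 5 with that of heterozygous replicates 3 and 4 left out. No member was called under any of these 32. The median difference of the vesicle cycle genes was below 0 in 13 and above 0 in 19 of them. It was −0.114 with wildtype replicates 3 and 4 left out and 0.164 without the array of heterozygous replicates 1 and 2. With a replicate block, the median was 0.0158, 0 probes were called and 4 members had an unadjusted p under 0.05. That count, 2 as reported, ranged from 0 with loess within arrays only to 8 with wildtype replicates 1 and 2 left out. No array block gave 6, and leaving out single replicates gave 1 to 4. The dimmer Brd2 probe kept its sign and passed with no array block (limma adjusted p = 0.0455). The sign turned for the dimmer Unc13a probe without the array of heterozygous replicates 1 and 2 (0.147). It also turned for the brighter Brd2 probe with the spatial trend removed (−0.082) and with wildtype replicates 1 and 2 left out (−0.272). The cause was not tested. Leaving out the 4 repeat probes of Cplx2, and fitting probes with missing values, were chosen after seeing the data. The 2 arrays per genotype limit every difference.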
